A study of Mus musculus with 15 samples.

Results

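Retained-intron transcripts are annotated RNAs of a gene that keep sequence which the gene's other transcripts splice out. In mouse kidney RNA, 5332 such transcripts were listed in the files of all 15 mice, out of 40054 transcripts of any kind, and 2757 of them reached 1 FPKM in 5 or more mice. FPKM is a level per length of transcript and per number of reads or fragments in the library. These 2757 transcripts of 1948 genes are described here, and each was taken by its GENCODE M21 biotype and this level. They are 13.1% of the 20987 annotated transcripts that passed the same level, and 2728 of them belong to protein-coding genes.

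The kidneys came from male wild-type C57BL/6 mice, 8 weeks old on arrival and given 1 week to adapt, in 3 groups of 5. Control mice had saline, and Ang II and Ang II + QDG mice had angiotensin II, a peptide hormone that raises blood pressure, at 500 ng/kg/min from osmotic pumps for 28 days. The Ang II + QDG mice (QDG mice) also had Qingda granule (QDG), a Chinese herbal formula, by gavage at 1.145 g/kg/day, and both other groups had water by gavage. Total RNA was depleted of rRNA, and each library came from 1 mouse, numbered here in accession order. All 8 kidney markers examined were listed in the files. Each Control file listed 41477 transcripts, and each Ang II and Ang II + QDG file listed 42310. Of retained-intron transcripts, 129 were listed only in Control files and 350 only in Ang II and Ang II + QDG files, and these are left out. The part of this difference between files in the comparisons with Control was not tested.

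Most introns are removed while the RNA is still being made. An intron that stays in keeps many RNAs in the nucleus, where the RNA can be held until it is spliced later (a detained intron), or exposes them to nonsense-mediated decay, the pathway that degrades RNAs with an early stop codon. Splicing factors of the SR family and the CLK kinases that phosphorylate them are known to adjust their own output through such introns.

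Compared with the introns of their genes' protein-coding transcripts, 1061 of the 2757 retained-intron transcripts spanned at least 1 whole intron. Counting introns that overlap through alternative splice sites as 1, 825 of these spanned 1 intron, 173 spanned 2, 36 spanned 3 and 27 spanned 4 or more. Another 1645 began or ended inside an intron and spanned none, so that they hold only a stretch of it, and 51 did neither. The whole introns spanned were 1561 distinct annotated introns, some of which overlap, 1462 of them between coding exons. Their median length was 239 bases (quartiles 107 and 563), against 626.5 bases (quartiles 185 and 1779.75) for the 10562 other introns of the same genes. Introns of 300 bases or fewer made up 57.7% of the spanned introns and 33.9% of the others. The spanned introns had GT at the start and AG at the end in 97.7%, GC and AG in 1.28% and AT and AC in 0.128%. In the 7115 introns spanned by other retained-intron transcripts of the annotation, GT and AG stood in 98.0%. The median GC content was 52.9% in the former and 51.0% in the latter.

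**Figure D1:**
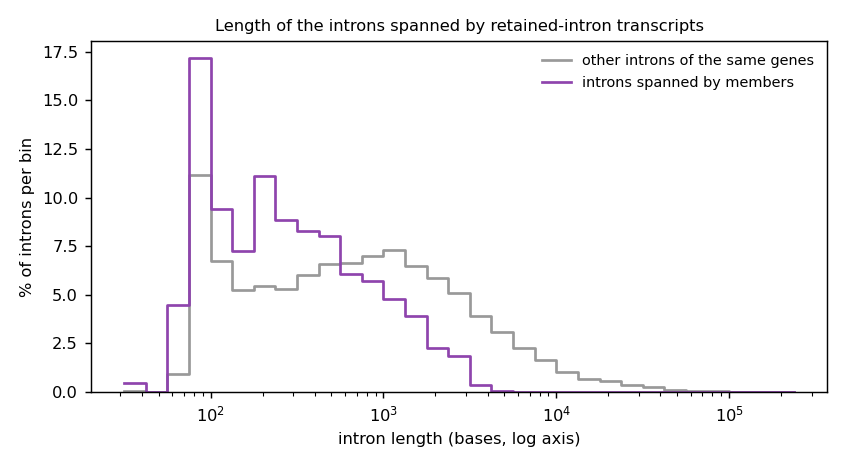
Length of introns (horizontal axis, bases, log axis) as a percent of introns per bin (vertical axis), for the 1561 introns spanned by the retained-intron transcripts described here and for the 10562 other introns of the same genes. The spanned introns lie further left, with medians of 239 and 626.5 bases.

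The 8 introns printed here show what the retained sequence is. They are the introns of 300 bases or fewer, between coding exons, in the transcripts named for their tests, their abundance or their splicing role. Capitals mark the first 6 and the last 3 bases of each intron, the splice sites that are left uncut, and each sequence runs 5′ to 3′ on the gene's strand. On GRCm38 (mm10) the intron of Rab34 lies at chr11:78190196-78190288 on the plus strand and that of Idh2 at chr7:80095897-80096022 on the minus strand. The introns of Ldhd lie at chr8:111629146-111629280 and chr8:111628721-111628985, both on the minus strand. That of Flna is at chrX:74227336-74227490 (minus strand) and that of Miox at chr15:89335651-89335839 (plus strand). The intron of Gsk3a is at chr7:25229573-25229850 and that of Abcd4 at chr12:84609097-84609378, both on the minus strand. The sequences were read from the GENCODE M21 transcripts.
Rab34: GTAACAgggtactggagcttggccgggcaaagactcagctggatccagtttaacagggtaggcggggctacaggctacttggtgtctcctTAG
Idh2: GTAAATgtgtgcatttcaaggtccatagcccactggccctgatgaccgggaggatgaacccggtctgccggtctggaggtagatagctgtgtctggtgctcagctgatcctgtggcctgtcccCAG
Ldhd, intron of 135 bases: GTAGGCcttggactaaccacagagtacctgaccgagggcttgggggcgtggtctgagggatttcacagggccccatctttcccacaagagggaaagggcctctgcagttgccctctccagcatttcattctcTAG
Flna: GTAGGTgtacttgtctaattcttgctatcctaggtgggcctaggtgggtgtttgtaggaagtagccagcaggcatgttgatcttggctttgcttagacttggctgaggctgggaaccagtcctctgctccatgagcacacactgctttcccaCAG
Miox: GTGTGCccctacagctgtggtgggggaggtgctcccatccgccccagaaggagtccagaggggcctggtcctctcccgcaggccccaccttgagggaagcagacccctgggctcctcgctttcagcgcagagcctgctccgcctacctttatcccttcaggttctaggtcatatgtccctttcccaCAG
Ldhd, intron of 265 bases: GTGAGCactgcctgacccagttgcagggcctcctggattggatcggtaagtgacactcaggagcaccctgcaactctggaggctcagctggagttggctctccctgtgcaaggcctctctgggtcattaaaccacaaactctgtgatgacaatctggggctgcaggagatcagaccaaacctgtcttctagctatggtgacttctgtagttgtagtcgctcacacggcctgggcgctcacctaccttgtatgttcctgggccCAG
Gsk3a: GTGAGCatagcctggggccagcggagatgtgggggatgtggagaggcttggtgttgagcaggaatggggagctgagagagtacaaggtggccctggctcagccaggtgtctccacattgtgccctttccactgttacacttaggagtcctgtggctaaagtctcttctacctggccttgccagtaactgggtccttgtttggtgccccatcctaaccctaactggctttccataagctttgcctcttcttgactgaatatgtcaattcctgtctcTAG
Abcd4: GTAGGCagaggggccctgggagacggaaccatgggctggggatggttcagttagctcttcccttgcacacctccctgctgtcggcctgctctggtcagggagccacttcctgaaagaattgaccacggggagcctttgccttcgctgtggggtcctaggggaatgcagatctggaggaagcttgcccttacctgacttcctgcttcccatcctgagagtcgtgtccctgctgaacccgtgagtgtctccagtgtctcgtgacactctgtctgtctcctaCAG
Each of the 8 begins with GT and ends with AG. Rab34's intron of 93 bases is removed in 5 annotated protein-coding transcripts of the gene, and so is that of Flna.

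The retained-intron transcripts were short and low. Their median length was 934 bases (164 to 9830) and the median of their mean level over the 15 mice was 1.58 FPKM (0.534 to 204.9). The protein-coding transcripts tested had medians of 2546 bases and 4.23 FPKM. In 608 of the 2757 the level was at least 1 FPKM in all 15 mice, and in 288 in exactly 5 mice. Just inside the rule, the fifth-highest level of Hax1, Rgl3 and Herc4 transcripts was 1.00062, 1.00177 and 1.00182 FPKM. Just outside it, that of Ankrd16, Strn4 and Vps50 transcripts was 0.99906, 0.99939 and 0.99946 FPKM. Another 371 listed retained-intron transcripts reached 1 FPKM in exactly 4 mice. The number at 1 FPKM or more in all 5 mice of a group was 801 in Control mice, 1248 in Ang II mice and 973 in QDG mice. A transcript that is high in 1 group alone could pass the rule through that group, so the counts over the 2757 are descriptions. The mice that carried a transcript past the rule were all Ang II mice for 1 transcript, and all of another group for 0.

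Pcyt2, whose enzyme makes the phosphatidylethanolamine precursor CDP-ethanolamine, and Aup1 had 7 retained-intron transcripts each, the most of any gene. Acp6, Aes and Hnrnpk, whose product is an hnRNP protein that binds pre-mRNA, had 6 each. In all, 1380 genes had 1 and 568 had 2 or more. Retained-intron transcripts of 1 gene share reads and are not independent of each other.

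The share of a transcript is its percent of the summed FPKM of its gene's annotated transcripts in the files, and it could be tested for 2618. Its mean over the mice had a median of 10.01%. It was under 10% in 1308 transcripts and at least 50% in 105. The shares leave out the transcripts that the authors assembled themselves, which carry no gene name, and those not listed in the files of all 15 mice.

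The 6 most abundant retained-intron transcripts came from 5 genes. Ldhd, the mitochondrial enzyme that oxidizes D-lactate, had its transcript with 2 retained introns (ENSMUST00000173521) at 232 ± 102 FPKM in Control mice, 207 ± 52.1 in Ang II mice and 176 ± 64.8 in QDG mice (SD, n = 5). It held 70.4%, 74.1% and 70.8% of the gene's FPKM. Znrf1 overlaps it on the opposite strand. Ugt3a2, a UDP-glycosyltransferase, had 216 ± 41.0, 186 ± 22.6 and 212 ± 11.99 FPKM in ENSMUST00000144755, with shares of 84.2%, 89.3% and 86.8%. In Miox, the kidney enzyme that opens the ring of myo-inositol, the transcript with the intron of 189 bases (ENSMUST00000159381) had 136 ± 22.9, 249 ± 75.7 and 198 ± 76.0 FPKM. A second one (ENSMUST00000160491) had 191 ± 142, 129 ± 41.3 and 203 ± 142 FPKM. The second ran from 74.7 to 361 FPKM among Control mice alone. Uimc1, a DNA repair protein, had 133 ± 13.1, 162 ± 9.92 and 125 ± 20.4 FPKM in ENSMUST00000128641, its only listed transcript. Slc25a5, an ADP/ATP carrier of mitochondria, had 58.4 ± 28.3, 140 ± 26.7 and 131 ± 101 FPKM in ENSMUST00000126608. None of the 6 passed the test in Ang II vs. Control, with adjusted p from 0.143 for the first Miox transcript to 0.921 for Ldhd.

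Single retained-intron transcripts varied widely within a group. Of the 285 that reached 10 FPKM in a Control mouse, 22 were under 0.1 FPKM in another Control mouse. In Ang II these counts were 366 and 11, and in Ang II + QDG 322 and 20. The median coefficient of variation was 47.7% in Control mice, 39.3% in Ang II mice and 46.8% in QDG mice, against 28.7%, 29.0% and 28.4% for protein-coding transcripts. Aifm1, the mitochondrial flavoprotein AIF, is an example: its transcript ENSMUST00000143466, with an intron of 1264 bases, had 30.3, 26.8, 0.0518, 0.988 and 27.9 FPKM in Ang II + QDG mice 1 to 5, while the gene's sum was 61.3 ± 8.84 FPKM.

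The reads or fragments implied by the values were 75034600 to 81329500 per Control mouse, 70697600 to 79291900 per Ang II mouse and 68922800 to 76143500 per QDG mouse. The 2757 retained-intron transcripts held 1.94%, 2.10%, 2.04%, 1.89% and 2.09% of the FPKM of all annotated transcripts in Control mice 1 to 5. Ang II mice had 2.35%, 2.79%, 2.63%, 2.42% and 2.72%, and Ang II + QDG mice 2.69%, 2.41%, 2.14%, 1.80% and 2.65%. Every Ang II mouse lay above every Control mouse. The Ang II + QDG mice spread over both ranges, and mouse 4 of that group stood apart at the lowest value of all 15. The median share of the gene was 5.49% to 7.62% in Control mice, 7.89% to 10.02% in Ang II mice and 5.06% to 9.06% in QDG mice, again with mouse 4 lowest. The number at 1 FPKM or more was 1471 to 1872 in Control mice, 2015 to 2292 in Ang II mice and 1471 to 2196 in QDG mice.

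**Figure D2:**
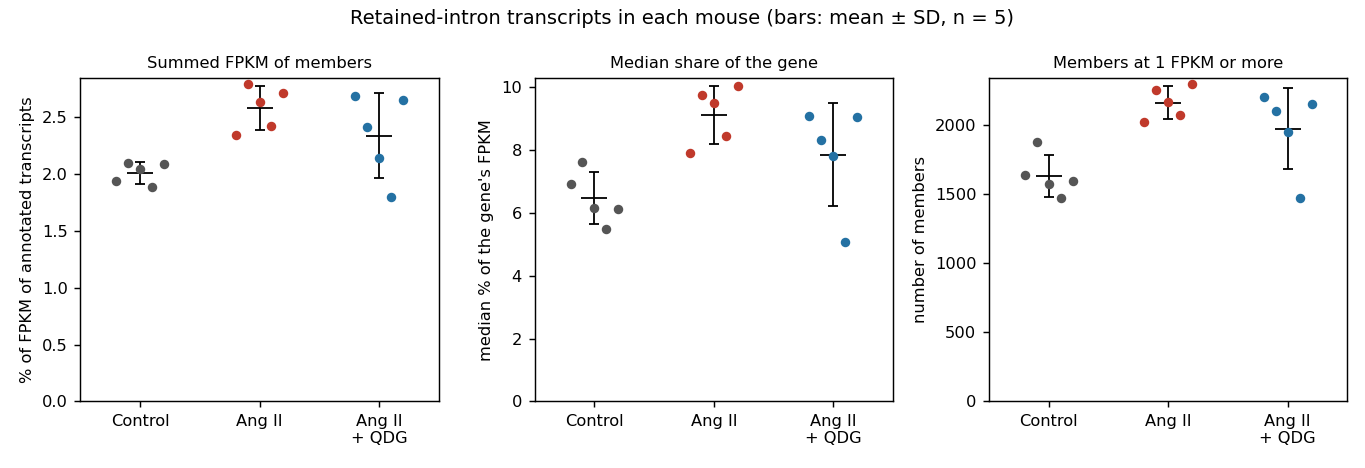
The 2757 retained-intron transcripts in each mouse (points) with the mean and SD of 5 mice (bars), as a percent of the FPKM of annotated transcripts (left), as the median percent of the gene's FPKM (middle) and as the number at 1 FPKM or more (right). All Ang II mice, at 2.35% to 2.79% on the left, lie above all Control mice, at 1.89% to 2.10%, and 1 Ang II + QDG mouse lies at 1.80%.

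Control and Ang II mice also stayed apart when part of the RNA was left out. Without the mitochondrial transcripts, which held 20.7% to 22.9% of the FPKM in Control mice, 17.4% to 18.1% in Ang II mice and 19.0% to 22.2% in QDG mice, the retained-intron transcripts held 2.41% to 2.67%, 2.86% to 3.38% and 2.31% to 3.32%. Of the FPKM of their own genes, they held 7.87% to 8.80% in Control mice, 9.10% to 10.62% in Ang II mice and 7.80% to 10.67% in QDG mice. Without the 10 most abundant of them, an alternative chosen after the values were seen, the range was 1.60% to 1.89% in Control mice, 2.05% to 2.43% in Ang II mice and 1.56% to 2.28% in QDG mice. In each of these 3, no Ang II mouse was as low as a Control mouse. For all 5332 listed retained-intron transcripts, with no level required, the values were 2.09% to 2.39%, 2.69% to 3.26% and 2.01% to 3.05%.

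A pair of nuclear RNAs was higher in every Ang II mouse than in every Control mouse, as these sums were, and their part in the result was not tested. Malat1, a nuclear long noncoding RNA, had 0.289, 79.3, 81.8, 64.3 and 63.5 FPKM in Control mice, 97.8 to 164.6 in Ang II mice and 114, 3.71, 48.6, 36.8 and 114 in Ang II + QDG mice. Neat1, the RNA scaffold of nuclear paraspeckles, had 4.26 to 42.6 FPKM in Control mice, 54.2 to 196.9 in Ang II mice and 75.8 to 130.9 in QDG mice. Both were chosen after their values were seen. The markers of cell types overlapped between Control and Ang II mice. Kidney markers, 8 of 8 listed, summed to 5668 to 17070 FPKM in Control mice, 5838 to 7894 in Ang II mice and 7912 to 13290.2 in QDG mice, so that every QDG mouse was above every Ang II mouse, and the part of this in Ang II + QDG vs. Ang II was not tested. Markers of red cells, 5 of 5 listed, summed to 545 to 1362 FPKM in Control mice, 1115 to 1943 in Ang II mice and 1557 to 2818 in QDG mice. Leukocyte markers, 4 of 6 listed and without Cd3e of T cells and Cd79a of B cells, summed to 13.8 to 26.0, 8.99 to 20.3 and 16.3 to 65.8 FPKM. Adipose markers, 4 of 4 listed, summed to 26.5 to 104, 25.1 to 174 and 40.0 to 77.3 FPKM, and of the 4 adrenal markers only Star was listed, at no more than 1.45 FPKM. In bulk kidney RNA, fewer cells of a type and less RNA per cell cannot be told apart.

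The comparison of Ang II vs. Control asked which retained-intron transcripts differ in the hypertensive kidney. Their log2 fold change, on the scale of log2(FPKM + 1), had a median of 0.30, and 79.1% were higher in Ang II. The median was 0.06 for the 15250 protein-coding transcripts, of which 58.6% were higher, and 0.09 for all 28812 transcripts tested, of which 61.5% were higher. It was 0.19 for 1011 processed transcripts, a class with no reading frame, and 0.17 for 716 transcripts annotated as targets of nonsense-mediated decay. Over all 5332 retained-intron transcripts, fitted with no level required, the median was 0.28, and 83.0% were higher. With quantile normalization the median of the 2757 was 0.18, and with scaling to the median of each mouse 0.22.

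Of the 2757, 39 rose and 1 fell at an adjusted p under 0.05, where 0.531% and 0.16% of all transcripts tested did. The 39 are 1.41% of the retained-intron transcripts. The count was 17 higher and 4 lower with quantile normalization and 25 and 5 with median scaling. Without 1 mouse it ran from 3 of either direction (without Control mouse 3) to 102 (without Ang II + QDG mouse 4), and it was 7 without Control mouse 1, 7 without Ang II mouse 2 and 4 without Ang II mouse 5. It was also 19 without Control mouse 4, 16 without Control mouse 5 and 24 without Ang II mouse 3. By the study's threshold for differentially expressed transcripts (DETs), a 2-fold change together with a p under 0.05 before adjustment, 112 were upregulated and 12 downregulated, against 1.93% and 0.954% of all transcripts. With quantile normalization these were 64 and 17, with median scaling 71 and 15, with a pseudocount of 0.1 in place of 1 they were 447 and 23, and with 0.01 they were 469 and 23. Every Ang II mouse was above every Control mouse in 277 and below in 8, where the background was 4.32% and 1.06%. Among the 608 with at least 1 FPKM in all 15 mice, this was so in 81 and 3, and the background for all transcripts at that level was not counted.

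**Figure D3:**
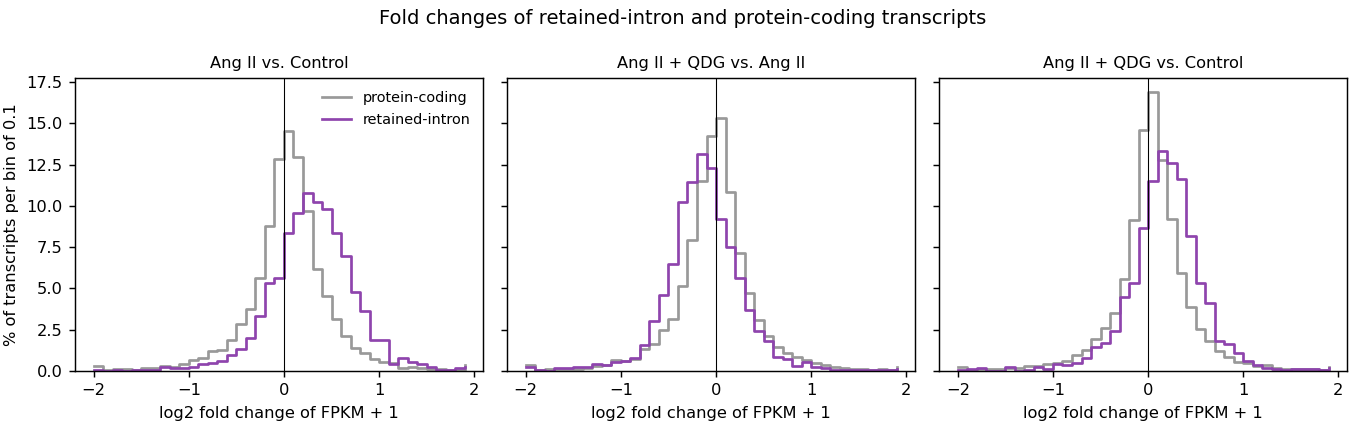
Percent of transcripts (vertical axis) per bin of 0.1 in log2 fold change of FPKM + 1 (horizontal axis) in the 3 comparisons, for 2757 retained-intron and 15250 protein-coding transcripts, with values beyond the axis counted in its outermost bins. The retained-intron curve lies right of the protein-coding one in Ang II vs. Control (medians 0.30 and 0.06) and left of it in Ang II + QDG vs. Ang II (medians −0.13 and −0.01), where the median of the retained-intron transcripts was −0.063 without Ang II + QDG mouse 4.

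The higher level was seen in most classes of retained-intron transcript. Of the 1061 that span a whole intron, 15 rose and 1 fell at an adjusted p under 0.05. Of the 1645 that begin or end inside an intron, 22 rose and 0 fell, where 0.531% and 0.16% of all transcripts tested did. The median log2 fold change was 0.34 in the former, with 82.6% higher, and 0.28 in the latter, with 77.0% higher. It was 0.22 in the 608 with at least 1 FPKM in every mouse and 0.32 in the other 2149. By mean level, it was 0.30 below 2 FPKM, 0.36 from 2 to 5 FPKM, 0.25 from 5 to 20 FPKM and 0.12 in the 71 transcripts above that, of which 60.6% were higher, a share near the 61.5% of all transcripts tested. The 3095 protein-coding transcripts of the same genes had a median of 0.05, with 56.1% higher. Summed over all listed transcripts, the 1948 genes had a median of 0.13, against 0.08 for all 12366 genes.

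The share told the same transcripts from their genes. It was higher in Ang II for 70.8% of the 2618 tested, with a median difference of 1.20 percentage points, while that of protein-coding transcripts was higher in 42.1%, with a median of −0.75 points. The higher share was not seen in the 70 with a mean level of 20 FPKM or more, of which 50% were higher (median −0.018 points), nor in the 105 with a mean share of 50% or more, of which 49.5% were higher (median −0.26 points). At an adjusted p under 0.05 the share of 2 rose and that of 0 fell, against 0.014% and 0.0211% of the 14240 transcripts tested for share. These 2 calls became 8 without Ang II mouse 4, 4 without Ang II mouse 1, and 1 without any of Control mice 1, 4 and 5 and Ang II mice 2, 3 and 5. At an unadjusted p under 0.05, 416 were higher and 51 lower, against 5.94% and 5.9% of the same 14240.

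Srrm2 encodes a large scaffold protein of nuclear speckles, the bodies where splicing factors gather. Its transcript ENSMUST00000190568 (chr17:23823525-23824327 on the plus strand, 597 bases) ends inside an intron. It had 0.0633, 0.0618, 1.12, 0.0618 and 0.0435 FPKM in Control mice 1 to 5, 8.03, 22.1, 24.5, 17.9 and 25.4 in Ang II mice and 10.03, 10.2, 26.2, 2.58 and 31.4 in Ang II + QDG mice. In 4 Control mice this was 2 or 3 reads or fragments and in Control mouse 3 it was 50, against 380 to 1165 in Ang II mice. No Ang II or Ang II + QDG mouse was as low as a Control mouse. Its log2 fold change was 3.99 (SE, the standard error, 0.51, adjusted p = 0.00738), the largest of the 39, and the adjusted p stayed at or under 0.031 without any 1 mouse. Its share was 10.7 ± 14.5% in Control mice, 84.8 ± 6.40% in Ang II mice and 87.3 ± 6.43% in QDG mice (SD, n = 5). Only 4 of the 12 annotated Srrm2 transcripts were listed, 2 of them protein-coding, so the share and the gene's sum are those of these 4 and may not stand for the whole gene. The difference of 74.1 points in Ang II vs. Control had an adjusted p of 0.000118. The sum of the 4 listed Srrm2 transcripts was 1.81 FPKM in Control mice and 22.9 in Ang II mice (log2 fold change 3.06, adjusted p = 0.00639).

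**Figure D4:**
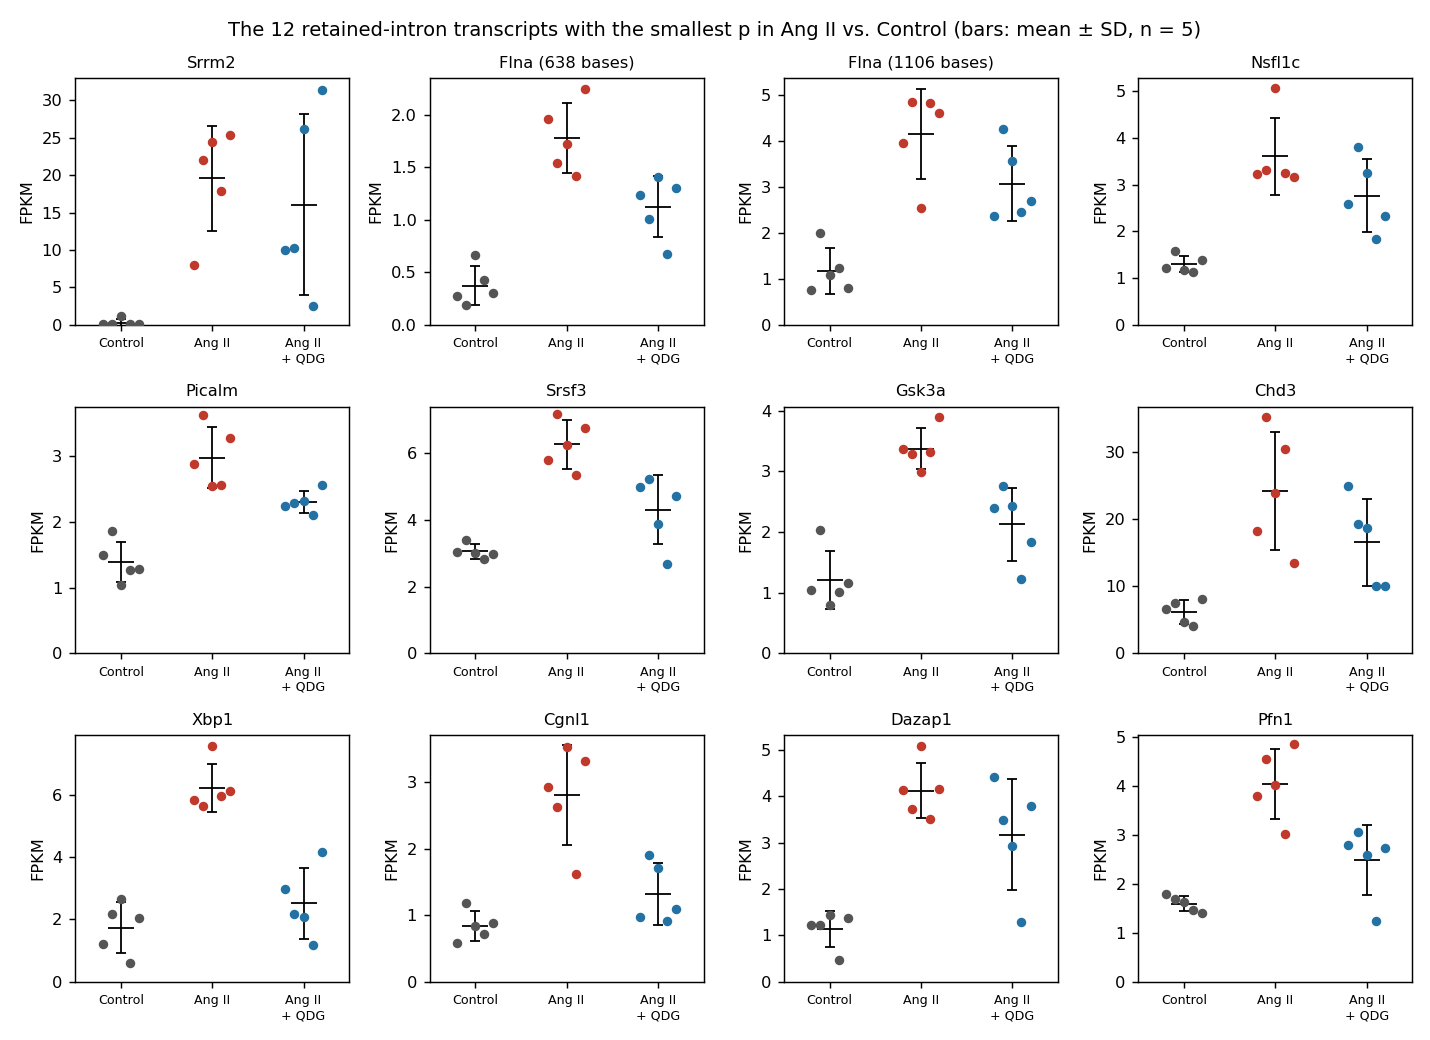
FPKM (vertical axes) of the 12 retained-intron transcripts with the smallest p in Ang II vs. Control, in each mouse (points) by group, with mean and SD of 5 mice (bars). The Ang II mice lie above all Control mice in each panel, as for Srrm2, at 8.03 to 25.4 against 0.0435 to 1.12 FPKM.

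Flna encodes filamin A, which crosslinks actin filaments, and both of its called transcripts rose. The shorter, ENSMUST00000133609 (chrX:74227237-74227968, minus strand), spans the printed intron of 155 bases. It had 0.277, 0.193, 0.668, 0.424 and 0.306 FPKM in Control mice, 1.96, 1.54, 1.72, 1.42 and 2.24 in Ang II mice and 1.24, 1.01, 1.41, 0.670 and 1.30 in QDG mice. The Ang II mice were all above the Control mice, and the Ang II + QDG mice were all below the Ang II mice. Its log2 fold change in Ang II vs. Control was 1.02 (SE 0.14, adjusted p = 0.0125), and it stayed under 0.05 without any 1 mouse. The longer, ENSMUST00000141528, had 1.18 ± 0.502, 4.16 ± 0.978 and 3.07 ± 0.816 FPKM in the 3 groups (log2 fold change 1.25, adjusted p = 0.0175). It lost the call without Control mouse 3 or Ang II mouse 5. The sum of the Flna transcripts rose as well (log2 fold change 0.91, adjusted p = 0.00392).

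Other genes of the cytoskeleton, membrane traffic and cell junctions had retained-intron transcripts among the 12 of smallest p. Pfn1 encodes profilin, which binds actin monomers. Its transcript ENSMUST00000177669, with an intron of 1369 bases, had 1.79, 1.70, 1.64, 1.47 and 1.41 FPKM in Control mice, 3.80, 4.56, 4.03, 3.02 and 4.86 in Ang II mice and 2.80, 3.07, 2.59, 1.24 and 2.75 in QDG mice. The Control and Ang II mice did not overlap (log2 fold change 0.95, SE 0.16, adjusted p = 0.021), while the gene's sum went from 72.5 ± 56.8 to 35.6 ± 26.5 FPKM (adjusted p = 0.567). Picalm, a clathrin adaptor of endocytosis, had 1.39 ± 0.308 FPKM in Control mice, 2.98 ± 0.467 in Ang II mice and 2.31 ± 0.164 in QDG mice in ENSMUST00000208127 (log2 fold change 0.74, adjusted p = 0.0196). Cgnl1, a cingulin-like protein of tight junctions, had 0.839 ± 0.221, 2.80 ± 0.750 and 1.32 ± 0.460 FPKM in ENSMUST00000136044 (log2 fold change 1.03, adjusted p = 0.021). Nsfl1c, the p97 cofactor p47 of Golgi reassembly, had 1.30 ± 0.177, 3.61 ± 0.824 and 2.76 ± 0.778 FPKM in ENSMUST00000125270 (log2 fold change 0.99, adjusted p = 0.018). In each of these 4 genes the Ang II mice lay above all Control mice. Each lost its call without Control mouse 3. Picalm, Cgnl1 and Pfn1 also lost it without Ang II mouse 2 or 5, and Cgnl1 and Pfn1 without Control mouse 1, with an adjusted p of at most 0.0614. Picalm also lost it with 10 mice only (adjusted p = 0.0555).

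Signaling and chromatin genes followed. Gsk3a encodes a kinase that phosphorylates glycogen synthase, and its transcript ENSMUST00000206654 (chr7:25229465-25231244, minus strand) spans the printed intron of 278 bases. It had 1.05, 2.03, 0.801, 1.01 and 1.16 FPKM in Control mice, 3.38, 3.29, 2.98, 3.32 and 3.90 in Ang II mice and 2.40, 2.76, 2.42, 1.22 and 1.83 in QDG mice. The Ang II mice were above every mouse of both other groups (log2 fold change in Ang II vs. Control 1.01, SE 0.17, adjusted p = 0.021). The gene's sum had a log2 fold change of −0.87 (adjusted p = 0.252), and the share went from 8.48 ± 9.81% to 32.7 ± 3.29% (adjusted p = 0.133). An antisense gene, 9130221H12Rik, overlaps this transcript, and their reads cannot be told apart where the library kept no strand. Chd3, a chromatin remodeler of the NuRD complex, had 6.19 ± 1.78, 24.2 ± 8.80 and 16.6 ± 6.48 FPKM in ENSMUST00000135909 (log2 fold change 1.77, adjusted p = 0.021). Here the whole gene rose (log2 fold change 1.89, adjusted p = 0.00832), and the share was 38.0 ± 13.7% in Control and 36.0 ± 8.69% in Ang II. Both calls for level were lost without Control mouse 1, Control mouse 3 or Ang II mouse 2, and that of Gsk3a also without Ang II mouse 5, with an adjusted p of at most 0.0576.

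Xbp1 encodes a transcription factor of the unfolded protein response, whose mRNA is cut by IRE1 in the cytoplasm to give the active form. Its retained-intron transcript ENSMUST00000145588 (chr11:5521005-5524026, plus strand) ends inside an intron. It had 1.21, 2.17, 2.66, 0.598 and 2.04 FPKM in Control mice, 5.85, 5.63, 7.57, 5.98 and 6.14 in Ang II mice and 2.98, 2.18, 2.07, 1.17 and 4.18 in QDG mice. The Ang II mice stood above all others, and the Control and Ang II + QDG mice overlapped. The log2 fold change was 1.46 in Ang II vs. Control (SE 0.25, adjusted p = 0.021) and, when QDG was given, −1.09 relative to Ang II (SE 0.25, adjusted p = 0.0913). Its share was 8.39 ± 4%, 22.9 ± 3.56% and 8.43 ± 3.49%. The share difference was 14.5 points in Ang II vs. Control (adjusted p = 0.0578). Relative to Ang II mice, it fell by 14.5 points in QDG mice (adjusted p = 0.0499), a call that did not hold in any of the 15 fits without 1 mouse, with adjusted p from 0.0557 to 0.176, nor with 10 mice only (0.158), the logit (0.305) or a gene sum of at least 5 FPKM (0.0503). The call for level in Ang II vs. Control was lost without Control mouse 1, Ang II mouse 2 or Ang II mouse 5.

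Genes that act on RNA itself were among those that rose. Srsf3, an SR protein that regulates splicing and mRNA export, has a retained-intron transcript (ENSMUST00000147265, chr17:29032649-29042243, plus strand) of 4010 bases that spans introns of 2150 and 393 bases. It had 3.05, 3.41, 3.00, 2.83 and 2.98 FPKM in Control mice, 5.79, 7.17, 6.27, 5.34 and 6.78 in Ang II mice and 4.99, 5.24, 3.89, 2.68 and 4.73 in QDG mice. The Ang II mice were above every mouse of both other groups (log2 fold change in Ang II vs. Control 0.84, SE 0.14, adjusted p = 0.021). Its share was 9.81 ± 0.862%, 16.1 ± 1.01% and 13.8 ± 3.50%, and the gene's sum rose by less (log2 fold change 0.30, adjusted p = 0.012). Dazap1, an RNA-binding protein, had 1.21, 1.23, 1.43, 0.469 and 1.38 FPKM in Control mice, 4.13, 3.73, 5.08, 3.51 and 4.16 in Ang II mice and 4.41, 3.47, 2.91, 1.28 and 3.78 in QDG mice in ENSMUST00000138032. Its log2 fold change was 1.27 (SE 0.22, adjusted p = 0.021), and the gene's sum rose by 0.69 (adjusted p = 0.00497). The calls of Srsf3 and Dazap1 were both lost without Control mouse 1, Control mouse 3, Ang II mouse 2 or Ang II mouse 5, with an adjusted p of at most 0.0576. The antisense gene Gm15122 overlaps the Dazap1 transcript.

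Srsf6, another SR protein, has a transcript (ENSMUST00000193611) that spans 1 stretch of 1283 bases, annotated both as a whole intron and as introns of 672 and 446 bases with an exon between them. It had 1.501, 1.72, 1.01, 0.836 and 1.23 FPKM in Control mice, 4.15, 5.74, 5.10, 3.69 and 6.47 in Ang II mice and 4.05, 3.11, 0.771, 0.856 and 1.82 in QDG mice. Of the Ang II + QDG mice, mouse 1 lay within the Ang II range, mice 2 and 5 between both other groups, and mice 3 and 4 within or below the Control range. The log2 fold change was 1.41 in Ang II vs. Control (SE 0.27, adjusted p = 0.0346) but −1.05 for QDG relative to Ang II (adjusted p = 0.137). Its share was 5.32 ± 1.12%, 15.3 ± 2.35% and 7.13 ± 4.29%, and the call was lost in 8 of 15 fits without 1 mouse and with a pseudocount of 0.01 (adjusted p = 0.0527). Snrnp70, the U1-70K protein of the U1 snRNP, had 2.56 ± 0.755, 5.69 ± 1.13 and 3.29 ± 0.948 FPKM in ENSMUST00000211366 (log2 fold change 0.92, adjusted p = 0.0492). It lost the call in 13 of 15 fits without 1 mouse and under each of 7 other settings (adjusted p from 0.0561 to 0.071). Sf1, which binds the branch point, had 1.81 ± 0.407, 4.63 ± 1.38 and 3.80 ± 1.47 FPKM in ENSMUST00000144239 and did not pass (log2 fold change 0.98, adjusted p = 0.0509).

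Smg5 encodes a factor of nonsense-mediated decay, and both the level and the share of its transcript ENSMUST00000192377 rose. The share was 1.95%, 2.74%, 1.97%, 2.63% and 2.64% in Control mice, 6.34%, 8.63%, 7.22%, 5.95% and 7.93% in Ang II mice and 7.01%, 5.64%, 4.69%, 3.62% and 6.12% in QDG mice. All Ang II and all Ang II + QDG mice were above all Control mice. The difference in Ang II vs. Control was 4.83 points (SE 0.68, adjusted p = 0.0201), and it lost the call in 7 of 15 fits without 1 mouse, with no trend in limma (adjusted p = 0.0803) and with the logit of the share (adjusted p = 0.125). The level had a log2 fold change of 0.73 (adjusted p = 0.0303) and lost its call in 5 of 15 fits without 1 mouse. Xbp1 and then Abcd4, a transporter for vitamin B12 in lysosomes, were next by share without passing. The Abcd4 transcript ENSMUST00000220952, with the printed intron of 282 bases and another of 329, held 2.47 ± 1.81%, 9.75 ± 1.88% and 5.52 ± 2.11% of the gene (difference 7.28 points in Ang II vs. Control, adjusted p = 0.0578). The sum of Abcd4 had a log2 fold change of 0.01 (adjusted p = 0.983).

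**Figure D5:**
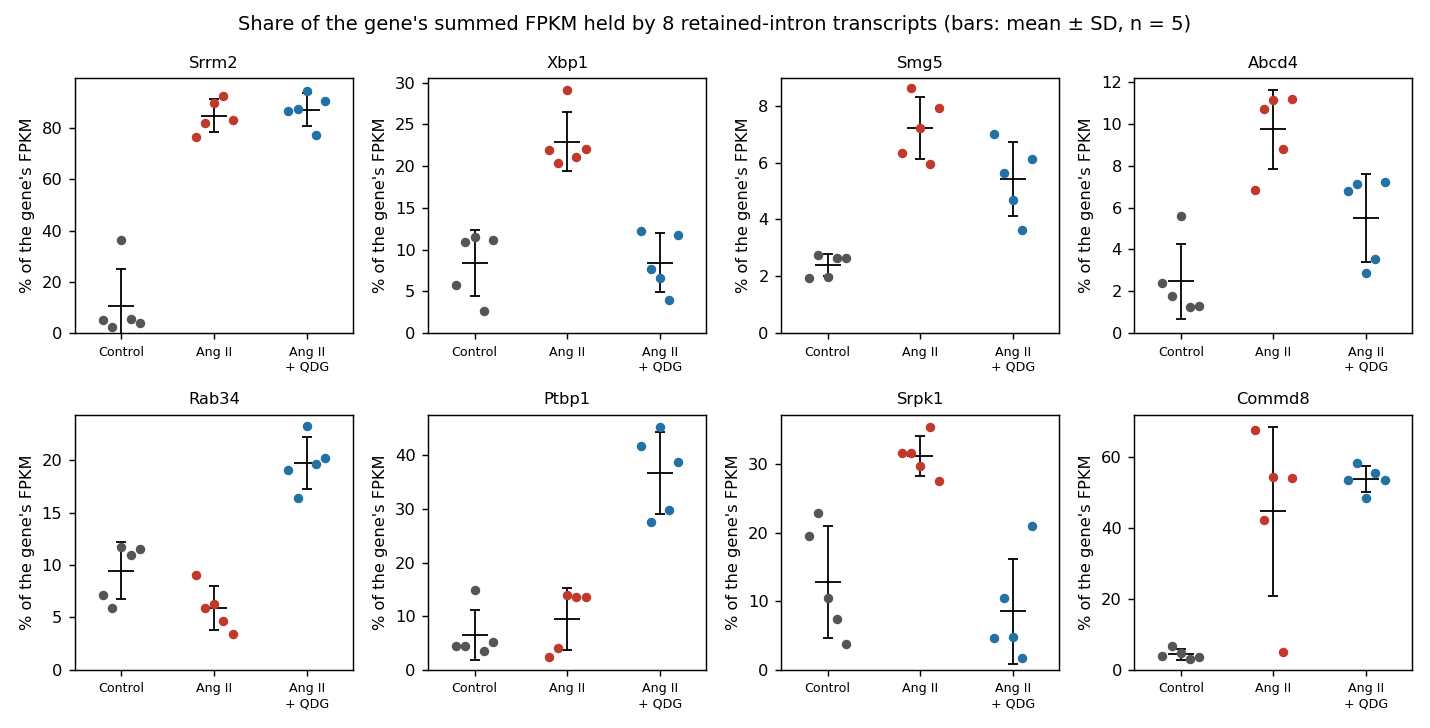
Percent of the gene's summed FPKM (vertical axes) held by 8 retained-intron transcripts in each mouse (points) by group, with mean and SD of 5 mice (bars). Rab34 and Ptbp1 are highest in Ang II + QDG, at 19.8% and 36.7%, and Xbp1 and Srpk1 are highest in Ang II, at 22.9% and 31.2%.

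The other transcripts that rose in Ang II vs. Control came from genes of several kinds. Transport in the tubule was represented by Fxyd2, a regulatory subunit of the sodium pump, with a log2 fold change of 1.34 (adjusted p = 0.0306). In Slc1a5, a glutamine transporter, it was 1.00 (adjusted p = 0.0465). These calls were lost in 8 and 11 of 15 fits without 1 mouse. Among metabolic enzymes, the transcripts of Dao, which oxidizes D-amino acids, of Sat1, which acetylates polyamines, and of Pkm, the glycolytic pyruvate kinase, had 0.87, 0.95 and 0.82. Naxd, which repairs hydrated NADH, had 1.51, and Sdha, the flavoprotein of complex II, had 0.86. Rpl6 and Rpl10a of the ribosome had 0.71 and 0.59. Fzr1, an activator of the anaphase-promoting complex, had 1.56, with 0.429 FPKM in Control and 3.01 in Ang II. Rbpms, an RNA-binding protein, had 1.09, and Zc3h18, which links the RNA cap to nuclear export and decay, had 0.84. From Dao to Zc3h18, the adjusted p ran from 0.0215 (Rbpms) to 0.0492 (Fzr1 and Pkm). Without 1 mouse, the calls of Dao, Sat1 and Sdha were lost in 11 of 15 fits, Pkm in 13, Naxd in 8 and Rpl6 in 10. Those of Rpl10a, Fzr1, Zc3h18 and Rbpms were lost in 14, 12, 12 and 4.

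Of the 40 calls by level in Ang II vs. Control, 2 passed in every fit without 1 mouse, and 23 were lost in 8 or more of the 15. Taken by their counts, the 39 came from 38 genes, with log2 fold changes from 0.59 to 3.99 (median 0.99), and 19 reached a fold change of 2. The 39 were chosen by their p in these same mice, so the counts that follow are largely fixed by that choice. In 38 of them no Ang II mouse was as low as a Control mouse, as in 4.32% of all transcripts tested. The exception was Commd8, whose product binds cullin ligases. Its transcript ENSMUST00000198951 had 0.351, 0.541, 0.407, 0.177 and 0.245 FPKM in Control mice, 7.57, 4.44, 4.07, 0.368 and 6.99 in Ang II mice and 5.57, 6.61, 4.92, 6.40 and 4.49 in QDG mice. Ang II mouse 4 lay with the Control mice (log2 fold change 1.85, SE 0.38, adjusted p = 0.0462), and the call was lost in 13 of 15 fits without 1 mouse. The share of the gene was higher in 37 of the 38 transcripts for which it was tested, against 49.05% of the 14240 tested for share. The gene's sum had passed as well, upward, in 20 of the 39, against 138 of the 1948 genes with retained-intron transcripts. A transcript's level is part of its share and of that sum, so neither count is independent of the choice. The gene's sum was lower in 2, Gsk3a and Pfn1. Of the 39, 15 span a whole intron and 5 belong to the splicing lists.

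Idh2, the mitochondrial NADP-dependent isocitrate dehydrogenase, had the 1 transcript that fell (ENSMUST00000156761, chr7:80095043-80096029, minus strand, with the printed intron of 126 bases). It had 5.51, 6.21, 5.61, 5.98 and 5.28 FPKM in Control mice, 3.72, 3.74, 3.00, 4.72 and 3.46 in Ang II mice and 5.595, 5.31, 6.04, 6.06 and 7.15 in QDG mice. Every Ang II mouse was below every mouse of the other groups. The log2 fold change was −0.51 in Ang II vs. Control (SE 0.11, adjusted p = 0.0492), a call lost in 13 of 15 fits without 1 mouse, but 0.58 for QDG relative to Ang II (adjusted p = 0.062).

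Splicing regulators, a list of SR proteins, hnRNPs, snRNP proteins and other RNA-binding or spliceosome-associated factors, had 76 retained-intron transcripts in 41 genes. Of these, 69 were higher in Ang II than in Control, with a median log2 fold change of 0.44. At an adjusted p under 0.05, 5 rose and 0 fell, and 6 were upregulated at the study's threshold. Of all transcripts tested, 0.531%, 0.16% and 1.93% did so, and of the 2757, 1.41%, 0.0363% and 4.06%. At an unadjusted p under 0.05, 35 were higher and 0 lower, where 12.2% and 3.73% of all transcripts tested were, and 729 and 51 of the 2757. The share was higher in 60 of 75, with a median of 1.97 points. Their summed level was 136.9 to 209.3 FPKM in Control mice, 225.2 to 330.4 in Ang II mice and 153.7 to 318.0 in QDG mice. The Control and Ang II mice did not overlap in this sum. The protein-coding transcripts of the same genes summed to 560 to 758, 622 to 722 and 608 to 788 FPKM, and their median log2 fold change was 0.14. In Ang II + QDG vs. Ang II, which uses the same Ang II mice, 20 of the 76 were higher, with a median of −0.19, and 1 rose, where 0.0278% of all transcripts did. Mouse 4 of the Ang II + QDG group stood apart with the lowest sum, 153.7 FPKM, while the other 4 had 256 to 318.0, within the Ang II range. Without it the median was −0.12, with 27 higher. In Ang II + QDG vs. Control 65 were higher, with a median of 0.31, and 2 rose, where 0.0139% of all transcripts did.

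Genes known for detained introns had 8 retained-intron transcripts, 2 each in Clk1 and Clk3, kinases of SR proteins, Srpk1, another such kinase, and Mat2a, which makes S-adenosylmethionine. All 8 were higher in Ang II than in Control, with a median log2 fold change of 0.68. At an adjusted p under 0.05, 0 passed, and 6 were higher at an unadjusted p under 0.05, where 26.4% of the 2757 and 12.2% of all transcripts were. They summed to 11.7 to 15.4 FPKM in Control mice, 22.5 to 29.7 in Ang II mice and 8.23 to 22.2 in QDG mice, and every Ang II mouse was above every mouse of both other groups. The protein-coding transcripts of these genes summed to 62.3 to 79.7, 82.9 to 104.9 and 74.6 to 117.9 FPKM, so that every Ang II mouse was above every Control mouse in this sum too, while the median log2 fold change of the 6 tested was 0.04. The Mat2a transcripts had means of 3.16 and 1.56 FPKM in Control mice, 6.504 and 3.66 in Ang II mice and 3.30 and 2.07 in QDG mice. The Clk1 transcripts had 2.59 and 0.890 FPKM in Control and 4.06 and 0.891 in Ang II, and the Clk3 transcripts 3.16 and 0.571 in Control and 4.74 and 1.42 in Ang II. In Ang II + QDG vs. Ang II 1 of the 8 was higher, with a median of −0.45 and 0 that passed. At an unadjusted p under 0.05, 4 were lower, where 7.8% of the 2757 and 6.9% of all transcripts were. Without Ang II + QDG mouse 4, which had the lowest sum, 8.23 FPKM, the median was −0.36, with 2 of the 8 higher.

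In Srpk1 the transcript ENSMUST00000145023 had 1.87, 2.02, 0.702, 0.582 and 0.196 FPKM in Control mice, 2.60, 5.09, 2.54, 3.67 and 2.52 in Ang II mice and 0.278, 0.579, 0.484, 0.169 and 1.95 in QDG mice. The Ang II mice were above all others. Its log2 fold change was 1.10 in Ang II vs. Control (adjusted p = 0.0938) but −1.39 for QDG relative to Ang II (adjusted p = 0.0852). Its share was 12.8 ± 8.13%, 31.2 ± 2.88% and 8.53 ± 7.64%, a difference of −22.7 points for QDG relative to Ang II (adjusted p = 0.104).

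The lists for the kidney's work and for stress follow. Tubule transporters and channels had 41 retained-intron transcripts, of which 32 were higher in Ang II than in Control (median 0.42), 2 rose, 0 fell and 8 were upregulated at the study's threshold (0.531%, 0.16% and 1.93% of all transcripts), beside a median of 0.14 for protein-coding transcripts of the same genes. The most abundant was Slc34a1, the proximal tubule phosphate transporter, with 60.9 ± 10.2, 131 ± 46.4 and 102 ± 37.8 FPKM in ENSMUST00000225538 (adjusted p = 0.0982 in Ang II vs. Control). Oxidative phosphorylation had 67, of which 56 were higher (median 0.41), 1 rose and 0 fell, beside 0.15 for protein-coding transcripts. Its most abundant, of the ATP synthase subunit Atp5b, had 96.5 ± 59.4, 98.0 ± 21.7 and 84.5 ± 33.0 FPKM in ENSMUST00000126040. Fuel metabolism had 59, of which 42 were higher (median 0.27), 1 rose and 1 fell. Ribosomal proteins had 79, of which 56 were higher (median 0.19), 2 rose and 0 fell, beside 0.16 for protein-coding transcripts.

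The nonsense-mediated decay list had 4 retained-intron transcripts, all higher in Ang II (median 0.60). Of them 1, that of Smg5, rose, where 0.531% of all transcripts tested and 1.41% of the 2757 did. Smg9 had the most abundant of them, with 3.46 ± 0.640, 3.86 ± 0.272 and 4.28 ± 0.259 FPKM in ENSMUST00000146686. The apoptosis and p53 list had 9, all higher (median 0.32), and 0 passed (1 at an unadjusted p under 0.05), beside −0.45 for 8 protein-coding transcripts of the same genes. Targets of the antioxidant factor NRF2 had 13, of which 12 were higher (median 0.26), and 0 passed. At an unadjusted p under 0.05, 4 were higher and 1 lower, beside 26.4% and 1.85% of the 2757 and 12.2% and 3.73% of all transcripts, so the share that was higher was near that of the 2757. The most abundant, of the pentose phosphate enzyme Tkt, had 16.8 ± 9.05, 19.7 ± 15.1 and 14.1 ± 3.31 FPKM in ENSMUST00000225039. The renin-angiotensin list had 4, of which 3 were higher (median 0.30), and 0 passed, also at an unadjusted p. The most abundant was that of the carboxypeptidase cathepsin A, Ctsa (ENSMUST00000133077), with 6.70 ± 3.04, 4.63 ± 2.52 and 7.74 ± 4.69 FPKM.

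Ang II + QDG vs. Ang II asked which retained-intron transcripts differ when QDG is given. It shares the 5 Ang II mice with the comparison above, so a chance deviation of those mice enters both with opposite signs. The median log2 fold change of the 2757 was −0.13, with 33.5% higher, against −0.01 for protein-coding and −0.03 for all transcripts tested. Without Ang II + QDG mouse 4 the median was −0.063, with 42.0% higher. At an adjusted p under 0.05, 2 rose and 0 fell, where 0.0278% and 0.0694% of all transcripts did, and at an unadjusted p under 0.05, 65 were higher and 215 lower, where 4.4% and 6.9% were. At the study's threshold 11 were upregulated and 42 downregulated, against 0.902% and 1.33%, and without mouse 4 these were 14 and 26. The share of 2 rose and that of 1 fell, against 0.0421% and 0.0211%. Over the 5332 with no level required, the median was −0.13, and 2 rose and 1 fell.

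Rab34 is a GTPase needed for primary cilia, and its transcript ENSMUST00000148603 (420 bases) spans the printed intron of 93 bases. It had 1.59, 1.26, 3.27, 2.96 and 3.90 FPKM in Control mice, 1.86, 1.56, 1.62, 1.21 and 0.897 in Ang II mice and 7.18, 5.00, 6.08, 5.26 and 7.65 in QDG mice. Every Ang II + QDG mouse was above every mouse of both other groups, whose ranges overlapped. Its share was 9.47 ± 2.74%, 5.87 ± 2.09% and 19.8 ± 2.48%. The share rose by 13.9 points in Ang II + QDG vs. Ang II (SE 1.65, adjusted p = 0.00612), and it stayed under 0.05 without any 1 mouse, while with the logit of the share it was 0.0539. The level, with an adjusted p of 0.0147, stayed under 0.05 without any 1 mouse too.

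Ptbp1 encodes the polypyrimidine tract binding protein, a repressor of exons that also acts on its own RNA. Its transcript ENSMUST00000169580 spans an intron of 401 bases. It had 2.07, 2.14, 7.54, 1.34 and 1.97 FPKM in Control mice, 1.19, 2.10, 5.88, 5.48 and 4.06 in Ang II mice and 29.4, 19.0, 27.7, 19.5 and 25.4 in QDG mice. The lowest Ang II + QDG mouse was above the highest of the other 10. Its share was 6.501 ± 4.72%, 9.48 ± 5.82% and 36.7 ± 7.69%, and rose by 27.2 points in Ang II + QDG vs. Ang II (SE 3.95, adjusted p = 0.0301). That call was lost in 10 of 15 fits without 1 mouse, with 10 mice only (adjusted p = 0.158) and with the logit of the share (adjusted p = 0.191). The call for the level (adjusted p = 0.0208) was lost without Ang II mouse 2 or Ang II + QDG mouse 3 and with a pseudocount of 0.01 (adjusted p = 0.0504). Plppr3 overlaps the transcript on the opposite strand, at a mean of 0.801 FPKM. The sum of Ptbp1 rose as well in Ang II + QDG vs. Ang II (log2 fold change 0.62, adjusted p = 0.033). Its other retained-intron transcripts did not follow alike. In the same comparison ENSMUST00000171216, ENSMUST00000164385 and ENSMUST00000165153 had log2 fold changes of −0.64, −0.49 and 0.30, and none passed. The first had means of 6.88, 5.25 and 3.26 FPKM in Control, Ang II and QDG mice.

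The other transcripts of smallest p in this comparison did not pass. Aes, a corepressor of the Groucho family, had 1.48 ± 0.440, 3.26 ± 0.613 and 1.20 ± 0.526 FPKM in ENSMUST00000220368 (log2 fold change −0.98, adjusted p = 0.0578). Psmc4, an ATPase of the proteasome, had 16.9 ± 4.69, 15.5 ± 3.72 and 6.63 ± 2.005 FPKM in ENSMUST00000135482 (log2 fold change −1.13, adjusted p = 0.0629). In Psmc4 all Ang II + QDG mice were below all Ang II and all Control mice. Fdft1, the squalene synthase of cholesterol synthesis, had 1.63 ± 0.401, 0.560 ± 0.390 and 1.80 ± 0.275 FPKM in ENSMUST00000224267 (log2 fold change 0.87, adjusted p = 0.0629).

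In Ang II + QDG vs. Control, which shares mice with both comparisons above, the median log2 fold change was 0.19, with 73.0% higher, against 0.04 for protein-coding and 0.06 for all transcripts. Quantile normalization lowered this median to 0.10 and scaling to the median of each mouse to 0.12. The red cell markers and Neat1, given above, were also higher in every QDG mouse than in every Control mouse, and their part in this shift was not tested. At an adjusted p under 0.05, 2 rose and 0 fell, where 0.0139% and 0.0104% of all transcripts did, and at an unadjusted p under 0.05, 326 were higher and 35 lower, where 7.06% and 2.95% were. At the study's threshold 34 were upregulated and 9 downregulated, against 1.17% and 0.85%. With quantile normalization these were 24 and 14, and with median scaling 22 and 17. Without Ang II + QDG mouse 4 the DETs numbered 75. The share of 3 rose and that of 0 fell, against 0.0211% and 0.00702%, and these were Srrm2, Ptbp1 and Acad9. Acad9, an assembly factor of complex I that also oxidizes fatty acids, was named after its values were seen. Its transcript ENSMUST00000199193 held 1.94% to 4.20% of the gene in Control mice, 3.53% to 4.86% in Ang II mice and 5.98% to 7.74% in QDG mice. Every QDG mouse was above the other 10, and the difference from Control was 3.58 points (adjusted p = 0.0487), a call lost in 13 of 15 fits without 1 mouse. The share call of Srrm2 passed in all 15 of these fits and that of Ptbp1 in all but 3, those without Control mouse 4 and Ang II + QDG mice 1 and 5. The 2 that rose in level were Ptbp1 (log2 fold change 2.80, adjusted p = 0.0175) and Srrm2 (log2 fold change 3.43, adjusted p = 0.0441). Srrm2 lost this call in 13 of 15 fits without 1 mouse and under 4 other settings (adjusted p from 0.0568 to 0.142), and Ptbp1 in 4, without Control mouse 1 or 4 or Ang II + QDG mouse 1 or 3. Commd8 had the next smallest p (log2 fold change 2.29, adjusted p = 0.0725), and without Ang II mouse 4 its adjusted p was 0.000167. Its shares were 4.32 ± 1.45% in Control mice, 44.8 ± 23.9% in Ang II mice and 53.9 ± 3.66% in QDG mice.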

How the data were processed

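RNA from 15 kidneys was sequenced by the authors, who deposited FPKM per transcript and mouse. The unit is not named in the sources used here and was read from the values: a value times the transcript's length was a whole multiple (tolerance 0.05 reads) of 1 constant per mouse for 98.4% to 98.7% of values under 200 reads. The submitters' processing notes name mm10 and limma. The aligner and quantifier are not given in the sources used here, nor is whether the library kept strand. The labels name rRNA depletion, and the study's methods also a poly(A) step. How reads shared by isoforms were split is not given in the sources used here, so levels of single isoforms carry an error that FPKM do not show.

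Biotypes, positions and sequences came from GENCODE M21, read with Python 3.11.15 and pandas 2.3.3. In R 4.3.3, limma 3.58.1 (lmFit and eBayes with a trend) was fitted to log2(FPKM + 1) of 28812 transcripts with at least 1 FPKM in 5 mice, and to the percent share of 14240 annotated transcripts whose gene had 2 or more listed transcripts and summed to 1 FPKM in every mouse. One model of 15 mice was used (12 residual degrees of freedom), and p-values are two-sided and Benjamini-Hochberg adjusted over all transcripts tested. They measure the spread between mice. Both fits were tested on simulated data. Fold changes on this scale understate those of low transcripts. The deposited FPKM give no counting error beyond the implied reads. The DET threshold is the study's. Named were the 12 transcripts of smallest adjusted p by level and 8 by share per main comparison (the 6 or 4 of smallest p where fewer passed), 3 in Ang II + QDG vs. Control, the 6 most abundant, up to 8 of the splicing and detained intron lists, and the most abundant of each other list. Some transcripts that this rule names are not reported here. Other genes were named after their values were seen. The alternatives were other pseudocounts, filters and scalings, no trend, 10 mice only, the logit of the share, a higher minimum of the gene's sum, other denominators, and leaving out each mouse. The members and gene lists were chosen with earlier results of these data known.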

Additional observations from a re-analysis of the deposited data

Results flagged for a closer look

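In 138 groups of 5 values, FPKM or shares of the named retained-intron transcripts in 1 group of mice, the highest or lowest mouse was far from the other 4 in 15. Chance gives about 1 in 20 where values are independent and normally distributed. The level and the share of 1 transcript are not independent, so that rate is only a rough guide here.

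Control mouse 3 was the high mouse in 6 of these. It had 1.12 FPKM of the Srrm2 transcript (others 0.0435 to 0.0633) and a share of 36.5% (others 2.52% to 5.55%). For Ptbp1 it had 7.54 FPKM (others 1.34 to 2.14) and a share of 14.9% (others 3.42% to 5.24%). For Abcd4 it had 0.830 FPKM (others 0.161 to 0.301) and a share of 5.5996% (others 1.27% to 2.40%). Among the other Control mice, Dazap1 was low in mouse 4, at 0.469 FPKM (others 1.21 to 1.43), and Ugt3a2 in mouse 2, at 144 FPKM (others 219 to 244). Ctsa was low in Control mouse 1, at 1.35 FPKM (others 7.52 to 8.88).

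Ang II mouse 3 was high for Nsfl1c, at 5.08 FPKM (others 3.16 to 3.31), and for Xbp1, at 7.57 FPKM (others 5.63 to 6.14) and a share of 29.2% (others 20.4% to 22.0%). In Ang II + QDG, Pfn1 was low in mouse 4, at 1.24 FPKM (others 2.59 to 3.07). Srpk1 was high in mouse 5, at 1.95 FPKM (others 0.169 to 0.579), and Smg9 in mouse 3, at 4.72 FPKM (others 4.11 to 4.28).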

How the results depend on the processing

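No paired analysis was possible because the labels number no mouse across groups, and the numbers used here follow accession order. DETs in Ang II vs. Control numbered 124 and became 470 with a pseudocount of 0.1, 492 with 0.01, 27 among transcripts at 1 FPKM in all 15 mice and 81 with quantile normalization. In Ang II + QDG vs. Ang II 53 became 113, 113 and 7 under the first 3 of these, and in Ang II + QDG vs. Control 43 became 189, 223 and 10. At an adjusted p under 0.05, the 40 in Ang II vs. Control became 25 with no filter, 65 in all 15 mice and 21 with quantile normalization. The 2 in Ang II + QDG vs. Ang II became 1 with a pseudocount of 0.01 and 6 in all 15 mice. The 2 in Ang II + QDG vs. Control became 1 with no filter, 1 with quantile normalization and 1 with no trend. By share, the 2 in Ang II vs. Control became 1 with no trend, 4 with 10 mice only, 1 with the logit and 1 with a gene sum of at least 5 FPKM. The 3 in Ang II + QDG vs. Ang II became 1 with 10 mice and 0 with the logit in limma (191 at an unadjusted p under 0.05). The 3 in Ang II + QDG vs. Control became 1 with the logit and 1 with the gene sum. In these, the cause was not tested. Without mitochondrial transcripts, the summed percent of 2.01, 2.58 and 2.34 in the 3 groups became 2.57, 3.14 and 2.93. Over the genes of the members it became 8.54, 9.85 and 9.61. Without the 10 most abundant, it became 1.75 in Control and 2.27 in Ang II.

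Without 1 mouse, adjusted calls by level ran from 3 to 102 in Ang II vs. Control, from 1 to 3 in Ang II + QDG vs. Ang II and from 0 to 5 in Ang II + QDG vs. Control. DETs ran from 97 to 153, from 40 to 65 and from 35 to 75, and calls by share from 1 to 8, 1 to 2 and 1 to 3. Of the 52 calls by level or share in the 3 comparisons, 6 passed in every fit without 1 mouse: Srrm2 by level in Ang II vs. Control and by share there and in Ang II + QDG vs. Control, the shorter Flna transcript, and Rab34 by level and share. Over 46 named results and 1010 alternative values, 126 lost a call (104 without 1 mouse), 18 gained 1 and 9 changed sign. The sign changes, none of them in a called result, were in Ang II vs. Control. Ldhd (−0.09) became 0.064, 0.082 and 0.016 without Control mouse 3, Control mouse 4 and Ang II mouse 3 (range −0.26 to 0.082). The second Miox transcript (−0.29) became 0.025 without Control mouse 3 (−0.54 to 0.025), and Atp5b (0.21) became −0.066 without Control mouse 5 (−0.066 to 0.51). Tkt (0.095) became −0.055 with median scaling, and −0.082, −0.044 and −0.26 without Control mouse 2, Control mouse 4 and Ang II mouse 1 (−0.26 to 0.34).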
